A study of Mus musculus with 8 samples.

Results

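Itgam, Itgax, Itgb2 and Icam1, the genes of 3 beta-2 integrin chains and of one of their ligands, were taken by gene symbol from a panel of 754 genes and followed through all 8 samples of the study. These 4 genes are all the members, and each was measured in every sample. C57BL/6 female mice, 10 weeks old by the sample labels, were either kept in a non-stressed environment (NS) or put under desiccating stress over 5 days (DS5), with tear secretion blocked by scopolamine given in drinking water a fan that moved air through the cage and a dry room. All mice were wild type by the sources used here, and the NS mice were housed in more humid air without the draft. Live CD45+ CD11b+ cells of the conjunctiva were sorted after removal of NK cells, granulocytes, T cells and B cells, and were divided into MHCII+ cells and, among MHCII-CD64+ cells, monocytes (high Ly6C), Ly6C-inter cells (intermediate) and a Ly6C-low population. Each sample was a pool of cells from the 2 conjunctivae of each of 20 mice, and every combination of condition and population had 1 sample. CD11b, the protein made from Itgam, was thus a gate of the sort for all 8 samples, and the MHCII+ gate had no CD64 or CD11c criterion by the study's methods.

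Beta-2 integrins are leukocyte adhesion receptors built from the shared beta chain CD18, encoded by Itgb2, and 1 of several alpha chains. CD11b with CD18 forms Mac-1, which binds ICAM-1, fibrinogen and the complement fragment iC3b on myeloid cells. CD11c, encoded by Itgax, pairs with the same beta chain and is best known from dendritic cells, while ICAM-1 is induced on many cell types by TNF, IL-1 and interferon gamma through pathways that include NF-kB.

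The proximal promoters are shown because Itgam and Itgax lie next to each other on chromosome 7, with 0 protein-coding genes between them in RefSeq's order, and yet exceeded background in 6 and 1 of the 8 samples, and because Icam1 is a textbook target of inflammatory signals. Each run below holds the 250 bases before the gene's start from RefSeq (GRCm38.p6), all on the + strand. Capitals mark matches on either strand to 3 motifs, the PU.1 core GAGGAA, an NF-kB-like GGAANNNCC and a GAS-like TTCNNNGAA.
Itgam, chr7:128062390-128062639: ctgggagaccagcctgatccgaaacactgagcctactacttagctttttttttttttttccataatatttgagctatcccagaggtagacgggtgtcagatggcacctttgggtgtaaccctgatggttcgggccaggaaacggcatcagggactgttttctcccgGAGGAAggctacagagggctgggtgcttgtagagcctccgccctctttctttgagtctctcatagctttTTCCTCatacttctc
Itgax, chr7:128129300-128129549: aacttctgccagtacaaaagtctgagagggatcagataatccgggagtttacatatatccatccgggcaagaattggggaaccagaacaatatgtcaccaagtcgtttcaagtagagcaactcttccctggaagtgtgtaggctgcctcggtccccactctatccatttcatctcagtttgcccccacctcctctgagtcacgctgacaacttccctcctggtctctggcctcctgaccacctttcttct
Icam1, chr9:21015690-21015939: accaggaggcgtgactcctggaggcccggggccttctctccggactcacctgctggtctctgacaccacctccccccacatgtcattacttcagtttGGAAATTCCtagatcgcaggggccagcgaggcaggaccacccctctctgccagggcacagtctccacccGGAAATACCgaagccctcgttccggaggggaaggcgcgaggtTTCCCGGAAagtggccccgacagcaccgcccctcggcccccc
Itgam had 2 matches to the PU.1 core, beginning 84 and 15 bases before the start, the second on the other strand. Icam1 had GGAAATTCC at 153 bases, which reads as a match on both strands, GGAAATACC at 84 bases and the GAS-like TTCCCGGAA at 42 bases before the start. In the Itgax window none of the 3 motifs was found. Among 32851 promoters of the same length, 23.3% held the PU.1 core, 15.7% the NF-kB-like and 7.02% the GAS-like motif, so single matches are common and describe the letters only.

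In the nCounter assay a pair of probes binds each transcript and the fluorescent barcode is counted by imaging, without amplification. The deposited values are raw counts, and their total over the 754 genes ranged from 2728 in NS monocytes to 39677 in NS MHCII+ cells, with 30335 in DS5 MHCII+ cells and 3929 to 14201 in the other samples. The negative control limit of a sample, the mean + 2 SD of its 8 probes without a target, lay between 11.2 and 23.0 counts, and 24 to 291 genes exceeded it. At least 1 of these probes reached 9 counts in every sample. For comparisons each sample was scaled to the same total of genes, the mean of the 8 samples, and values under 1 were set to 1. One raw count then stood for 0.336 scaled units in NS MHCII+ cells and for 4.89 in NS monocytes. Poisson intervals of single counts, Clopper-Pearson intervals of ratios and exact conditional intervals of changes in ratios are all at 95% and cover counting error only. With 1 pooled sample per condition nothing was tested and no p-value is given. In sorted bulk samples, fewer cells that express a gene and less RNA per cell cannot be told apart.

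The DS5 Ly6C-inter library stood apart from the other 7. Emp1 alone made up 10.1% of its gene counts, with 1436 counts against 6 to 97 elsewhere, followed by S100a11 with 891 and S100a10 with 696. Ly6c1, a gene of the Ly6C antigen, gave 583 counts there and 2 to 16 in the other samples, including 8 and 16 in the monocytes that had been gated as Ly6C-high, which goes against the order of the gates as far as this gene goes, since Ly6c2 was not measured. Pglyrp1, a granule protein gene best known from neutrophils, had 196 counts against 1 to 7 elsewhere. Of 8 measured granulocyte markers only S100a9 exceeded the limit in that library, at 55 counts, while Ly6g had 1 count. The summed count of these markers was 82 there and 14 to 32 in the other 7 samples. Macrophage markers were present, with 8 of 11 above the limit in both Ly6C-inter samples. Their part in the results on the Ly6C-inter population was not tested. The MHCII genes followed their gate, with H2-Aa at 3419 and 2635 counts in the MHCII+ samples and 12 to 22 in the others. Macrophage and monocyte markers above the limit numbered 10 of 11 in the NS and 9 in the DS5 sample of MHCII+ cells but 0 and 1 in the monocytes, whose label these counts do not bear out at this depth. Fcgr1, the gene of the CD64 used to gate the MHCII- populations, gave 3 and 7 counts in the monocyte samples, below their limits.

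Most readings of the 4 genes above background came from the MHCII+ cells, whose libraries were the deepest. Of the 32 values, 12 exceeded the negative control limit, 7 of the 8 in the MHCII+ samples and 5 of the 24 in the MHCII- samples. Neither monocyte sample had a value above its limit for any of the 4 genes.

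Itgam, the CD11b alpha chain, was counted 91 times in the NS MHCII+ sample, 7 times in NS monocytes and 21 and 31 times in the NS Ly6C-inter and Ly6C-low samples. After DS5 the same samples gave 75, 8, 161 and 13 counts. The gene exceeded the limit in 6 samples, all but the monocytes, and in DS5 Ly6C-low cells only just, at 13 against a limit of 12.5. Its 161 counts in DS5 Ly6C-inter cells, with a Poisson interval of 137 to 188, were the highest of its 8 values and stood far above the limit of 23.0 there. Although every cell had been sorted for CD11b protein, the transcript was not detectable at this depth in monocytes.

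Itgb2, the CD18 chain that CD11b and CD11c need to reach the surface, gave 56, 1, 15 and 15 counts in the NS samples, in the order used for Itgam. The corresponding DS5 counts were 48, 8, 10 and 9. Both MHCII+ samples and NS Ly6C-inter cells were above their limits, the last at 15 against 11.2. In DS5 Ly6C-inter cells, where its partner Itgam peaked, Itgb2 gave 10 counts, less than the 24 counts of the highest negative control probe in that sample.

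Icam1, the adhesion ligand, gave 91 counts in NS MHCII+ cells, 1 in NS monocytes and 11 and 4 in the Ly6C-inter and Ly6C-low samples of NS mice. The corresponding DS5 counts were 80, 8, 13 and 11. The MHCII+ samples alone exceeded their limits, and NS Ly6C-inter cells lay just below, at 11 against 11.2. Raw counts in MHCII+ cells had intervals of 73.3 to 112 in NS and 63.4 to 99.6 in DS5, which overlap.

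Itgax, the CD11c alpha chain, gave 12, 2, 2 and 4 counts in the NS samples, from MHCII+ cells to Ly6C-low cells, and 8, 2, 4 and 5 in the DS5 samples. NS MHCII+ cells alone exceeded the limit, by less than 1 count, at 12 against 11.2. Of 8 measured dendritic cell markers, Itgax among them, 4 exceeded the limit in NS MHCII+ cells, 1 in DS5 MHCII+ cells and 0 in the other samples. Flt3, a growth factor receptor of dendritic cells, gave 1 to 7 counts throughout.

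**Figure D1:**
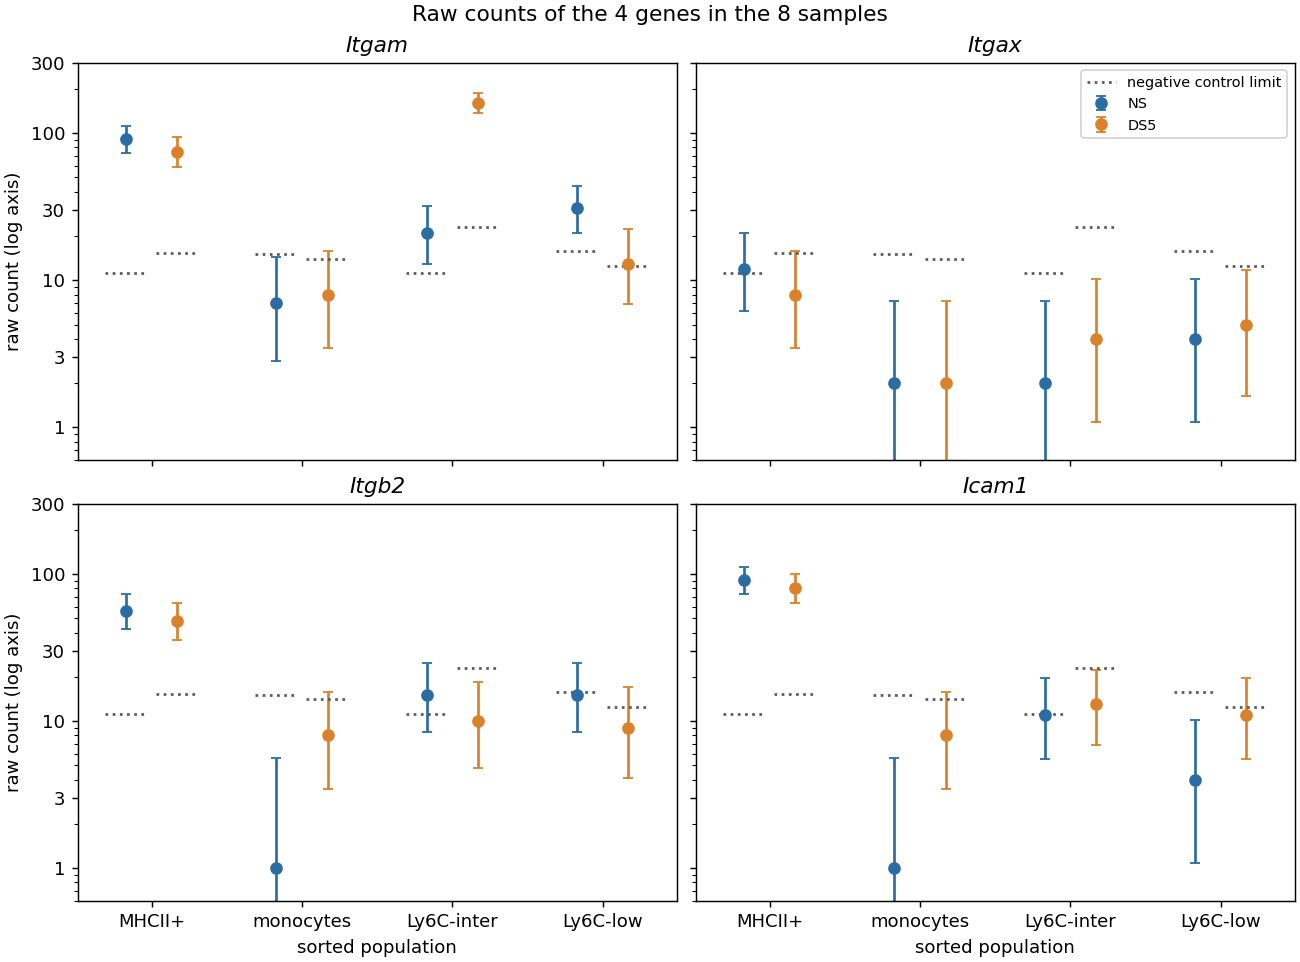
Raw counts of Itgam, Itgax, Itgb2 and Icam1 (log axis) in the 4 sorted populations of NS and DS5 mice. Points are the counts of single pooled samples, bars their 95% Poisson intervals, which run below the axis for counts of 1 and 2, and dotted lines the negative control limit of each sample. Values well above the limit are those of Itgam, Itgb2 and Icam1 in the MHCII+ samples, Itgam in both NS populations with intermediate or low Ly6C, and Itgam at 161 counts in DS5 Ly6C-inter cells.

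On the scaled values, which can be set against each other only within a gene, the order of the 8 samples was mostly unresolved. Itgam ran from 151 in DS5 Ly6C-inter cells over 71.3 in NS Ly6C-low cells and 47.1 in NS Ly6C-inter cells to 27.2 in DS5 monocytes, with the MHCII+ cells at 30.6 in NS and 33.0 in DS5. Only its first step, a log2 ratio of 1.08 (0.52 to 1.69), exceeded the counting interval. Itgb2 had its highest value, 34.5, in NS Ly6C-low cells and its lowest, 4.89, in NS monocytes, and among its 7 steps only the one from NS MHCII+ cells at 18.8 to DS5 Ly6C-inter cells at 9.39 exceeded the interval (log2 interval 0.02 to 2.14). Yet the negative control limit of the DS5 Ly6C-inter library was 21.6 scaled units, above both values, so this step is not resolved from background. Icam1 ranged from 36.2 in DS5 Ly6C-low cells to 4.89 in NS monocytes and Itgax from 16.4 in DS5 Ly6C-low cells to 3.52 in DS5 MHCII+ cells. For these 2 genes no neighbours in the order differed beyond the interval. A limit of 15.1 counts in NS monocytes corresponds to 73.9 scaled units, so any level below that could not be told from background there.

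The first comparison asked whether desiccating stress changed the 4 genes within a population. In MHCII+ cells, the best measured population, it left them within counting error of the NS sample. The log2 ratio of DS5 over NS was 0.11 (-0.35 to 0.57) for Itgam, 0.17 (-0.42 to 0.75) for Itgb2 and 0.20 (-0.25 to 0.65) for Icam1. Changes above 0.75 in either direction thus lie outside the intervals of these 3 genes, as far as counting error goes. Itgax had a ratio of -0.20 (-1.69 to 1.21), too wide to say more. None of the 4 genes passed the study's threshold of 1.5, which 2.65% of all genes passed, and none had an interval that excluded 0, as 4.77% of all genes had. The median log2 ratio was 0.14 over the 4 genes and 0 over all genes. The direction depended on the scaling, and without scaling Icam1 stood at -0.19 and Itgam at -0.28.

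In monocytes, Itgb2 and Icam1 each went from 1 count in NS to 8 counts in DS5. Their log2 ratio of 2.47 (-0.43 to 7.95) tied for the third highest of the 754 genes and passed the threshold, yet the interval included 0 and both counts lay below their limits. With values raised to the negative control limit the ratio became -0.067. Itgam (7 and 8 counts) had a ratio of -0.33 (-1.99 to 1.36) and Itgax (2 and 2 counts) one of -0.53 (-4.31 to 3.26). So 2 of the 4 genes passed the threshold and none had an interval that excluded 0, where 20.7% of all genes passed and 2.39% had such an interval.

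Among Ly6C-inter cells Itgam differed between NS and DS5 at counts above the limit in both samples. Itgam went from 21 counts in NS to 161 in DS5, and its scaled value was 3.21-fold higher (log2 ratio 1.68, 1.02 to 2.41), rank 43 of 754 from the highest. Itgb2, with 15 and 10 counts, went the other way, with a log2 ratio of -1.84 (-3.16 to -0.59), rank 60 from the lowest, although the DS5 count lay below the limit of that sample. For Icam1 the ratio was -1.01 (-2.29 to 0.29) and for Itgax -0.26 (-3.06 to 3.21). Of the 4 genes 2 passed the threshold and the same 2 had intervals that excluded 0, against 21.2% and 16% of all genes. This is the comparison that rests on the library that stood apart. When its 3 most abundant genes were taken out of the totals, Itgam stood at 1.99 and Itgb2 at -1.54. Over all alternatives Itgam stayed between 1.66 and 2.94, while Itgb2 went from -3.98 to -0.56 and fell short of the threshold with no scaling (-0.59).

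In Ly6C-low cells Icam1 went from 4 to 11 counts, a log2 ratio of 1.98 (0.22 to 4.08), with both counts below the limits of 15.9 and 12.5. It ranked 99 of 754 and came to 0.11 when values were raised to the limit. Itgam went from 31 to 13 counts (log2 ratio -0.74, -1.80 to 0.24), Itgb2 from 15 to 9 (-0.22, -1.60 to 1.07) and Itgax from 4 to 5 (0.84, -1.38 to 3.17). One gene of the 4 thus passed the threshold and had an interval that excluded 0, against 27.5% and 6.1% of all genes, whose median log2 ratio was 0.52.

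**Figure D2:**
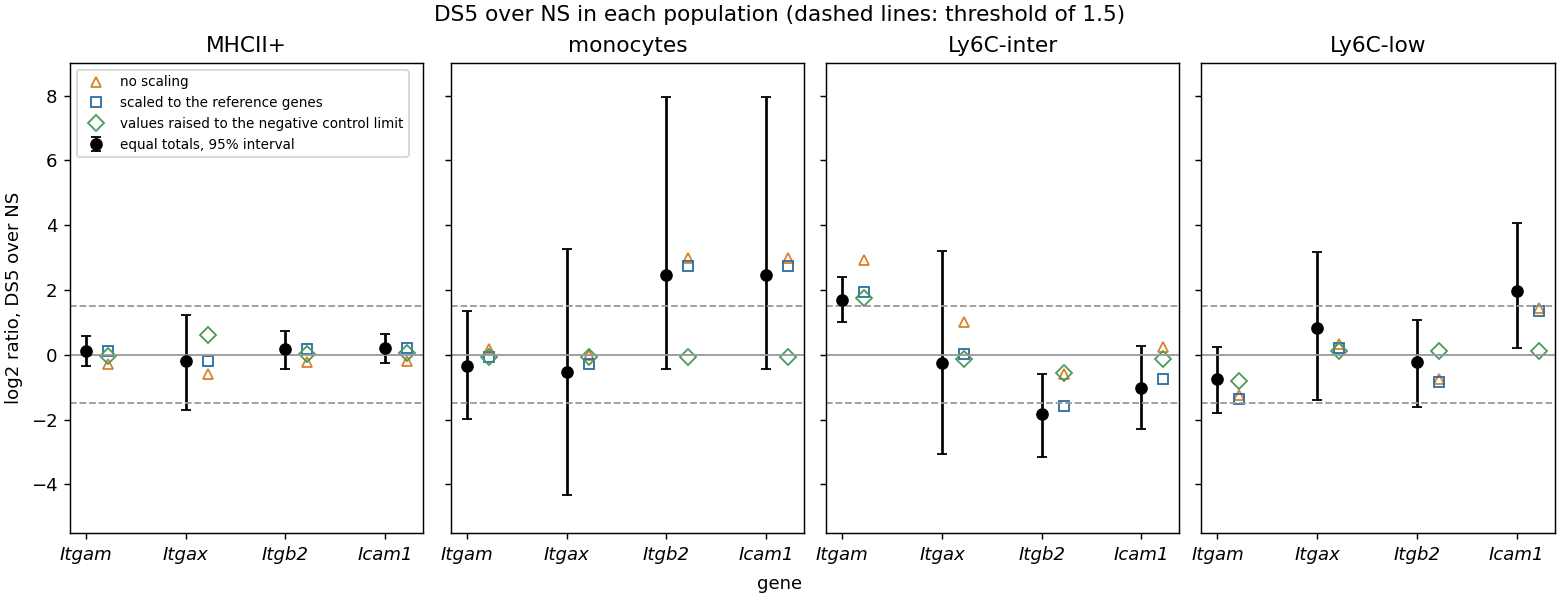
Log2 ratio of DS5 over NS for the 4 genes in each population. Black points are the values scaled to equal totals with 95% counting intervals, open symbols the same ratio without scaling, scaled to the reference genes or with values raised to the negative control limit, and dashed lines the threshold of 1.5. Itgam in Ly6C-inter cells (1.68) stays above the threshold under all 4 treatments, whereas the monocyte ratios of Itgb2 and Icam1 (2.47) are -0.067 once values are raised to the limit.

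The second comparison set the MHCII+ cells against each MHCII- population within a condition, with a threshold of 2. The 3 comparisons of a condition share the MHCII+ sample. After scaling the median of all genes lay below 0 in these comparisons, between -2.28 and -0.91, and ratios near 0 lie above that median. Without scaling the same medians were between 0 and 1.58. MHCII+ samples had the largest totals and also another composition. The 8 measured sort markers, Cd74 and the MHCII genes among them, summed to 11991 of 39677 counts in NS and 9150 of 30335 in DS5 MHCII+ cells. Their sums in the MHCII- samples were 79 to 857. The part of depth and of these genes in the medians was not tested.

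Among the 4 genes Icam1 had the highest ratios of MHCII+ cells over the MHCII- populations in NS mice, against counts below the limit. It was 2.65 (0.13 to 7.96) above monocytes on the log2 scale, 13th of 754 genes, 0.31 (-0.60 to 1.36) above Ly6C-inter cells and 1.73 (0.33 to 3.64) above Ly6C-low cells, where it ranked 19th. These 3 ratios were above 0 under all alternatives, with ranges of 0.69 to 6.68, 0.29 to 3.19 and 0.91 to 4.52. The Icam1 counts of the 3 MHCII- samples, 1, 11 and 4, were all below their limits. In scaled units these limits were 73.9, 25.0 and 36.5, against an Icam1 value of 30.6 in NS MHCII+ cells. A higher level in MHCII+ cells than in monocytes or Ly6C-low cells is therefore not shown. In DS5 mice Icam1 differed by 0.37 (-0.67 to 1.63) from monocytes, 1.53 (0.67 to 2.50) from Ly6C-inter cells and -0.04 (-0.96 to 1.02) from Ly6C-low cells. The second of these, rank 45, involved the library that stood apart and was 1.21 with its 3 most abundant genes left out of the totals.

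Itgam had intervals below 0 against some populations. MHCII+ cells were lower by a log2 ratio of -1.22 (-1.82 to -0.58) against Ly6C-low cells in NS and of -2.20 (-2.61 to -1.79) against Ly6C-inter cells in DS5. The medians of all genes in these comparisons were -1.20 and -0.91, so the first ratio was that of an ordinary gene. That ratio turned to 1.55 without scaling, whereas the one against DS5 Ly6C-inter cells stayed below 0 in all alternatives (-3.16 to -0.65). In the other 4 comparisons its ratio lay between -0.62 and 0.28 with intervals that included 0.

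Itgb2 had a ratio of 1.94 (-0.59 to 7.27) over NS monocytes, where it ranked 15th on 56 counts against 1. Over DS5 Ly6C-inter cells it was 1.17 (0.17 to 2.32), its only interval of the 6 that excluded 0, and the other 4 ratios lay between -0.87 and -0.36. The 1.17 rests on the library that stood apart, where the 10 counts of Itgb2 lay below the limit of 23.0. That limit corresponds to 21.6 scaled units, against 21.1 for Itgb2 in DS5 MHCII+ cells, so a higher level there is not shown. The ratio was 0.53 with values raised to the limit and 0.21 scaled to Ppia and Rpl19. Itgax lay between -2.22 and -0.10 in all 6 comparisons. Its one interval that excluded 0, -2.22 (-4.02 to -0.27) against DS5 Ly6C-low cells, rested on 8 and 5 counts below the limits, and the sign turned without scaling, to 0.68.

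In NS cells, 1 of the 4 genes passed the threshold over monocytes and 1 interval excluded 0, against 54% and 32.4% of all genes. Over NS Ly6C-inter cells 0 passed and 0 intervals excluded 0, against 26.3% and 24.9%. The counts over NS Ly6C-low cells were 0 and 2, against 23.6% and 22.9%. In DS5 cells they were 0 and 0 over monocytes (41.8% and 32.1% of all genes), 1 and 3 over Ly6C-inter cells (21.1% and 28.6%) and 1 and 1 over Ly6C-low cells (37.5% and 30.1%). Shares of 4 genes are coarse beside such backgrounds and mark nothing particular to them.

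**Figure D3:**
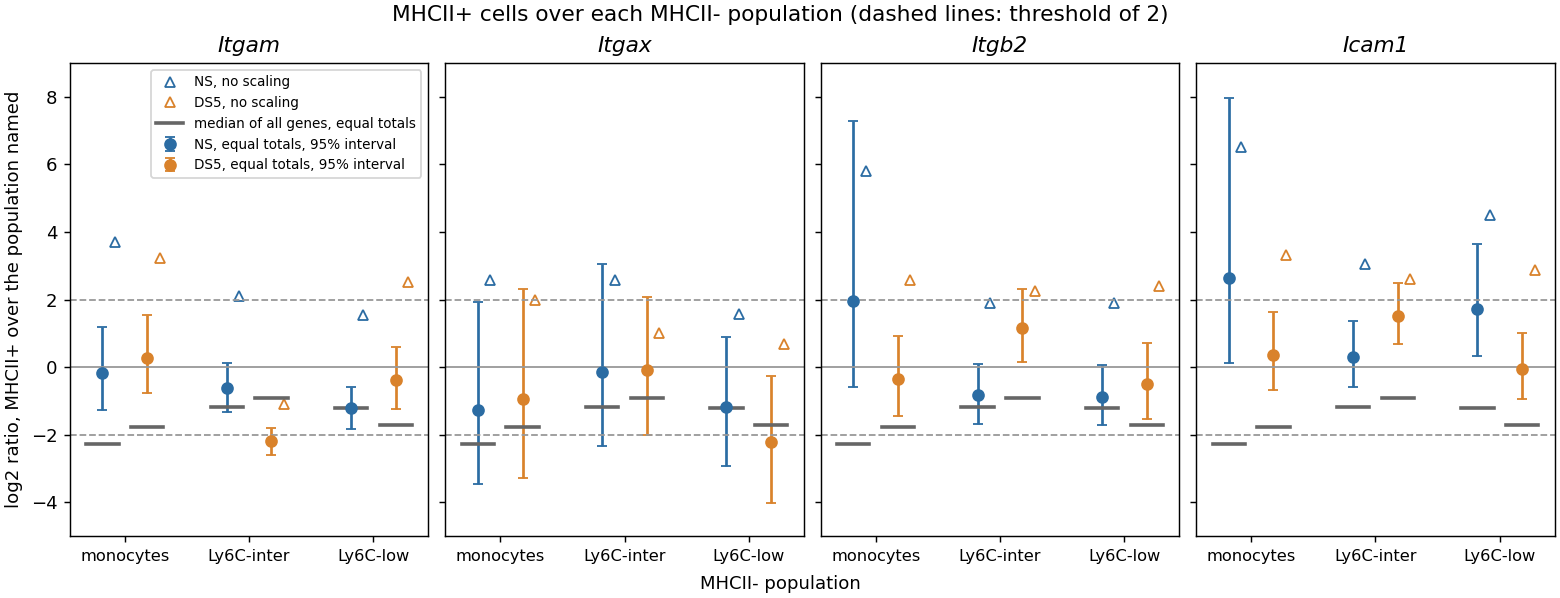
Log2 ratio of MHCII+ cells over each MHCII- population for the 4 genes in NS (blue) and DS5 (orange) samples. Points are values scaled to equal totals with 95% counting intervals, triangles the ratio without scaling, grey bars the median of all genes after scaling and dashed lines the threshold of 2. The sign of most ratios depends on the scaling, while Icam1 is above 0 in all 3 NS comparisons both ways and Itgam is below 0 against DS5 Ly6C-inter cells both ways (-2.20 and -1.10). The Icam1 counts of the MHCII- samples are all below their negative control limits.

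The ratio of 2 genes within a sample needs no scaling, so its change between samples does not depend on the choice of scaling. It does depend on background where a count lies near the negative control limit. The ratio itself mixes the efficiency of 2 probes, and only its change was read. The receptor pair Itgam over Itgb2 had a ratio of 1.62 in NS and 1.56 in DS5 MHCII+ cells, 1.4 in NS Ly6C-inter cells, 2.07 in NS Ly6C-low cells and 1.44 in DS5 Ly6C-low cells. In DS5 Ly6C-inter cells it was 16.1. The monocyte ratios of 7 in NS and 1 in DS5 came from counts of at most 8. Between NS and DS5 Ly6C-inter cells the ratio of alpha to beta chain was thus 11.5-fold apart (log2 change 3.52, 2.05 to 5.01). The 10 counts of Itgb2 behind it lay below the limit, and the change was 2.32 with values raised to the limit and 5.91 after subtraction of the negative control mean. In the same way MHCII+ cells were lower than Ly6C-inter cells in DS5 by a change of -3.37 (-4.58 to -2.26). In MHCII+ cells the change with stress was -0.06 (-0.81 to 0.70).

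Ligand over receptor, Icam1 over Itgb2, had a ratio of 1.62 in NS and 1.67 in DS5 MHCII+ cells, a log2 change of 0.04 (-0.71 to 0.79). In NS Ly6C-low cells it was 0.267, and MHCII+ cells differed from them by a log2 change of 2.61 (0.85 to 4.71). Both counts of the Ly6C-low sample, 4 and 15, were below its limit of 15.9, and the change was 0.70 with values raised to the limit. DS5 Ly6C-low cells had a ratio of 1.22, and their change from NS of 2.20 (-0.09 to 4.65) narrowly included 0. The ratio of the 2 alpha chains, Itgax over Itgam, was 0.132 in NS and 0.107 in DS5 MHCII+ cells and 0.0248 in DS5 Ly6C-inter cells, a log2 change of 2.10 (0.14 to 4.32) between the last 2. Itgax was below the limit in both, with 8 and 4 counts, and the change was 0.52 with values raised to the limit. Of 40 such changes over 4 pairs of genes, these 4 alone had intervals that excluded 0, and 3 of them involved the DS5 Ly6C-inter library. No share over other pairs of genes was computed, so the count marks nothing particular to these pairs.

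**Figure D4:**
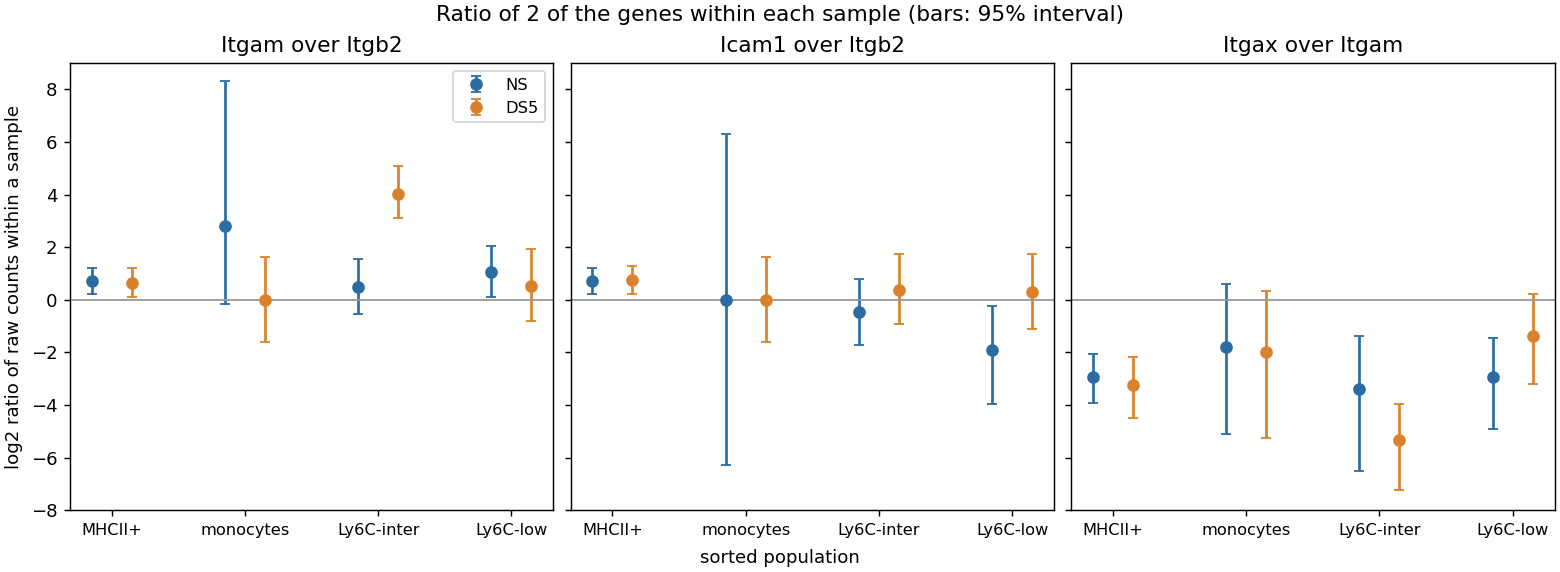
Log2 ratio of the raw counts of 2 genes within each sample, with 95% counting intervals, for Itgam over Itgb2, Icam1 over Itgb2 and Itgax over Itgam in NS (blue) and DS5 (orange) populations. Itgam over Itgb2 lies at 0.49 to 1.05 in the MHCII+ samples, NS Ly6C-inter cells and both Ly6C-low samples but at 4.01 in DS5 Ly6C-inter cells, and the NS and DS5 MHCII+ samples coincide within their bars in all 3 ratios.

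Correlation with the other genes over the 8 samples describes which genes had a similar pattern, with all points sharing the same libraries and scaling. It was computed on log2 scaled values for the 97 genes above the limit in at least 4 samples. Itgb2 was followed most closely by Fosb (Pearson r 0.95), an immediate early transcription factor with 254, 8, 59 and 69 counts in the NS samples and 179, 27, 66 and 35 in the DS5 samples. Fosb was also first by Spearman correlation (0.98), without scaling (0.98) and without the DS5 Ly6C-inter library (0.95). Only 3 of the 8 Itgb2 values exceeded the limit, so much of the pattern compared is background. The next genes were Adgre1 (0.83), which encodes the macrophage antigen F4/80, and the chemokine gene Ccl9 (0.80).

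For Itgam the nearest were S100a11 (0.91), Emp1 (0.88) and the autophagy receptor gene Sqstm1 (0.88). S100a11 and Emp1 had the most counts in the DS5 Ly6C-inter library, and without that library they ranked 16 and 41 and Sqstm1 23, and Fem1c (0.96) came first. Icam1 was most like Ier3 (0.70), an early response gene, followed by Marcksl1 (0.70) and the chemokine gene Ccl7 (0.64), and Ier3 reached 0.91 without that library. By Spearman correlation Ier3 ranked 10 (0.45) and Marcksl1 13, with Cd83 first, and only 2 of the 8 Icam1 values exceeded the limit. Itgax was closest to Gpr65 (0.81), Cd47 (0.78) and Ptgs2 (0.75), which compares counts that are mostly background. Among the 4 genes themselves r was 0.66 between Itgb2 and Icam1, with a Spearman correlation of 0.19, and -0.15 between the partners Itgam and Itgb2, or 0.41 without the DS5 Ly6C-inter library.

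The wider setting came from 6 lists of genes that act with these receptors, and in MHCII+ cells no gene of any list passed the threshold with stress after scaling to equal totals. Scaling to the reference genes gave 1 adhesion gene there, and no scaling gave 2 adhesion genes and 2 ligands. The counts of genes past the threshold in the other populations stand beside shares of all genes of 20.7% for monocytes, 21.2% for Ly6C-inter and 27.5% for Ly6C-low cells, and most came from counts at background. Other integrin chains were represented by 5 genes of 22 listed. Itgb1, the beta-1 chain, had the highest mean scaled value of them, with 128 counts in NS and 78 in DS5 MHCII+ cells, a log2 ratio of -0.33 (-0.75 to 0.09). Itgal, the LFA-1 alpha chain and the third measured alpha partner of Itgb2, gave 9 to 16 counts in every sample whatever its total. It passed the threshold as lower in Ly6C-inter cells after DS5, with 15 and 11 counts and a log2 ratio of -1.70 (-2.97 to -0.48). Itgb7 counts ranged from 1 to 16. With stress the list had 0 genes past the threshold in MHCII+ cells (median log2 ratio 0.02) and monocytes (0.80), and 0 higher and 1 lower in both the Ly6C-inter (-0.26) and the Ly6C-low samples (-0.81). Of these calls, only that of Itgal in Ly6C-inter cells had a count above the negative control limit, 15 against 11.2 in NS. Its 11 counts in DS5 were below the limit of 23.0 there.

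Of 25 adhesion receptors and ligands of leukocyte trafficking, 12 were measured. In Ly6C-inter cells 3 were higher and 0 lower after DS5, with a median of 0.74 against -0.26 over all genes. The junctional adhesion molecule gene F11r, a ligand of LFA-1, went from 6 to 92 counts (log2 ratio 2.68, 1.51 to 4.17) and Alcam, an adhesion molecule of the immunoglobulin family, from 3 to 41 (2.52, 0.87 to 4.85). F11r is also expressed by epithelium, had 1 to 6 counts in the other 7 samples, and the one epithelial marker measured, Cdh1, gave 16 counts in that library, under its limit of 23.0, and 1 to 5 elsewhere. The part of other cells in this difference was not tested. Selplg, the P-selectin ligand gene, and Cd47 gave 85 and 64 counts in NS MHCII+ cells and 68 and 54 in DS5 MHCII+ cells. The list had 0 higher and 0 lower in MHCII+ cells, 2 and 2 in monocytes and 4 and 0 in Ly6C-low cells, with medians of 0.03, 0.27 and 0.52. None of the calls in monocytes and Ly6C-low cells was of a gene above the negative control limit, against 2 of the 3 in Ly6C-inter cells. Vcam1, the ligand of beta-1 and beta-7 integrins, gave 1 to 4 counts and Cd44, a hyaluronan receptor gene, 1 to 4.

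Genes of integrin activation and signalling, 6 measured of 31 listed, were 0 higher and 3 lower in Ly6C-inter cells after DS5, with a median of -1.55. With no scaling the 1 gene that passed was Was, higher at 1 count in NS and 3 in DS5, and none of the 3 lower genes passed. After scaling, Tyrobp was the 1 call among genes above the limit. Tyrobp, the DAP12 adaptor through which Mac-1 can signal to Syk, went from 61 to 32 counts there, a log2 ratio of -2.19 (-2.85 to -1.55), the direction of Itgb2 and not of Itgam. Syk itself gave 10 and 12 counts (-0.99, -2.33 to 0.38) and Btk, a Tec family kinase gene, 7 and 4 counts (-2.06, -4.28 to -0.09). In MHCII+ cells Tyrobp gave 254 counts in NS and 184 in DS5, a ratio of -0.08 (-0.36 to 0.20). The list had 0 higher and 0 lower in MHCII+ cells and monocytes and 1 higher and 0 lower, at background counts, in Ly6C-low cells.

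Ligands of these integrins other than ICAMs, 7 measured of 18, included Fn1, which encodes fibronectin. Its 246 counts in NS and 199 in DS5 MHCII+ cells stood against 8, 8, 3 and 1 in the Ly6C-inter and Ly6C-low samples and 20 and 29 in the monocytes. Over monocytes the log2 ratio of MHCII+ cells was -0.24 (-0.90 to 0.49) in NS and -0.17 (-0.74 to 0.45) in DS5. Over NS Ly6C-inter cells the log2 ratio was 2.20 (1.20 to 3.43), and over DS5 Ly6C-inter cells it was 4.96 (3.39 to 7.25). Plaur, the urokinase receptor gene and a partner of Mac-1, gave 114 and 108 counts in MHCII+ cells and 24 in both monocyte samples. After scaling the log2 ratio of MHCII+ cells over monocytes was -1.61 (-2.26 to -0.91) in NS and -0.78 (-1.43 to -0.08) in DS5. The medians of all genes in these comparisons were -2.28 and -1.76, so Plaur lay above an ordinary gene in both. Its raw counts were higher in MHCII+ cells, so the sign depends on the scaling. Mmp9 and Plau, genes of proteases that bind beta-2 integrins, were lower in Ly6C-inter cells after DS5, at -2.26 (-3.51 to -1.09) and -1.99 (-3.37 to -0.71). Mmp9 gave 20 counts in NS and 10 in DS5, and Plau 15 and 9. Both DS5 counts were below the limit of 23.0 in the library that stood apart. In MHCII+ cells Mmp9 gave 41 counts in NS and 14 in DS5, the latter under the limit of 15.3. Of the 7 ligand genes, 1 had an interval below 0 with stress in MHCII+ cells and 0 had one above, where 4.77% of all genes had an interval that excluded 0. C3, the source of iC3b, went from 9 to 19 counts in monocytes (0.55, -0.66 to 1.88). With stress the list had 0 higher and 0 lower in MHCII+ cells and monocytes, 1 and 3 in Ly6C-inter cells and 2 and 1 in Ly6C-low cells. Among genes above the limit, 2 of the 4 calls in Ly6C-inter cells and 0 of the 3 in Ly6C-low cells were left.

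Genes of the NF-kB, TNF, IL-1 and interferon pathways, which can induce Icam1, were represented by 22 of 32. With stress 0 passed the threshold in MHCII+ cells (median 0.20), 0 were higher and 4 lower in monocytes (-0.28), 3 and 1 in Ly6C-inter cells (-0.66) and 2 and 3 in Ly6C-low cells (-0.12). Among genes above the limit 0, 2 and 3 calls were left in these 3 MHCII- populations. Il1b, the interleukin-1 beta gene, gave 319 counts in NS and 290 in DS5 MHCII+ cells (log2 ratio 0.25, 0.02 to 0.48). Its raw count was thus lower in DS5, and the direction depends on the scaling. In MHCII+ cells 2 of the 22 genes had an interval above 0 and 1 had one below 0, while 4.77% of all genes had an interval that excluded 0. Tnfrsf1a of the same list gave 98 and 49 counts there. Irf1, an interferon-induced transcription factor gene, went from 17 to 123 counts in Ly6C-inter cells (1.60, 0.86 to 2.42) and Il1b from 25 to 11 (-2.44, -3.61 to -1.36), while Icam1 gave 11 and 13 counts. In Ly6C-low cells Cebpb went from 106 to 26 counts (-1.51, -2.19 to -0.88), Nfkbiz from 43 to 8 (-1.91, -3.21 to -0.81) and Nfkbia, an NF-kB inhibitor, from 21 to 4 (-1.88, -3.88 to -0.31). Il6 had 47 counts in NS and 62 in DS5 MHCII+ cells and 1 to 9 in the other, shallower samples, with a scaled log2 ratio of 2.82 (0.27 to 8.15) over NS Ly6C-inter cells. The 1 count there was under the limit of 11.2, or 25.0 scaled units. At 0.336 scaled units per count, the 47 counts of NS MHCII+ cells also lie below 25.0, so a higher Il6 level is not shown. Tnf gave 28 and 19 counts in NS MHCII+ and NS Ly6C-inter cells, a ratio of -2.18 (-3.07 to -1.26) after scaling against more raw counts in MHCII+ cells.

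Of 10 transcription factors of myeloid integrin genes 4 were measured, and the gene of PU.1 was not among them. Cebpb, with the highest mean, also belongs to the preceding list, and its ratio of MHCII+ over Ly6C-low cells in NS was -2.47 (-2.85 to -2.09) on 131 and 106 counts, which without scaling run the other way. Cebpa, a myeloid lineage factor, gave 52 counts in NS and 38 in DS5 MHCII+ cells (-0.07, -0.71 to 0.57) and Irf4 34 in both (0.39, -0.34 to 1.12). The list had 0 higher and 0 lower in MHCII+ cells and monocytes, 0 and 1 in Ly6C-inter cells and 1 and 1 in Ly6C-low cells, of which only Cebpb in Ly6C-low cells was above the limit.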

How the data were processed

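The authors extracted total RNA from the sorted pools, measured it on a NanoString nCounter panel of mouse myeloid innate immunity genes and deposited raw counts per probe, for 754 genes, 8 negative and 6 positive control probes, without normalization. The smallest value was 1, so a value of 1 may stand for 0. The members and lists were chosen with earlier results of these data known. Counts were scaled to equal totals over genes (mean 13334), with values under 1 set to 1, and compared as log2 ratios at the study's thresholds of 1.5 and 2, since only 2 of 20 reference genes measured exceeded the negative control limit in every sample. Intervals are exact at 95% and were checked on simulated counts. Genes named besides the 4 were, per gene, the 3 with the highest Pearson correlation and, per list, the 3 with the highest mean scaled value and any past a threshold with an interval that excludes 0 and a count above the limit. Genes outside this rule, in the library that stood apart and in the lists (Vcam1, Cd44 and the like), were named after their values were seen. One gene that the rule selects is not reported here. Positive controls, reference genes, Ppia and Rpl19, no scaling, other floors and 2 background corrections were the alternatives. Protein sequences were not used here. Computation used scipy 1.17.1, numpy 2.4.6 and pandas 2.3.3 under Python 3.11.15, with figures from matplotlib 3.10.9.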

Additional observations from a re-analysis of the deposited data

Results flagged for a closer look

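The change with desiccating stress was compared between populations for each gene, 24 differences in all, each with an exact interval for counting error only and no test across animals. In 7 the interval excluded 0, and all 7 involve the Ly6C-inter population, whose DS5 library stood apart. These differences were not computed over all genes, so no background share stands beside the 7 and they mark nothing particular to the 4 genes. For DS5 over NS, the interval excluded 0 for 16% of all genes in Ly6C-inter cells. The shares were 4.77% in MHCII+ cells, 2.39% in monocytes and 6.1% in Ly6C-low cells. For Itgam the log2 ratio of DS5 over NS in MHCII+ cells minus that in Ly6C-inter cells was -1.57 (-2.44 to -0.75), in monocytes minus Ly6C-inter cells -2.02 (-3.82 to -0.15), and in Ly6C-inter minus Ly6C-low cells 2.42 (1.18 to 3.68). For Itgb2 the difference was 2.01 (0.60 to 3.46) for MHCII+ minus Ly6C-inter cells and 4.31 (0.99 to 9.88) for monocytes minus Ly6C-inter cells. For Icam1 it was 3.49 (0.17 to 9.08) for monocytes minus Ly6C-inter cells and -2.99 (-5.44 to -0.73) for Ly6C-inter minus Ly6C-low cells. Of the 4 counts behind each difference, 2 were below the negative control limit in the second of Itgam, 1 in the first of Itgb2, 3 in its second and all in those of Icam1. The part of the library in these differences was not tested.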

How the results depend on the processing

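Of 360 log2 ratios of the 4 genes under alternatives, 295 stayed within their counting interval and 73 changed sign, among them 15 of the 24 ratios of MHCII+ over MHCII- cells without scaling. The 360 and the 295 include 40 ratios without the floor of 1, which could not change because the lowest scaled value of the 4 genes was 3.52. Ratios past the threshold changed sign in 4 cases, Itgb2 and Icam1 in monocytes with values raised to the negative control limit (-0.067 each) and Itgax in DS5 MHCII+ over Ly6C-low cells, at 0.68 without scaling and 0.88 scaled to the positive controls. Past 1.5 with stress there were 0 of the 4 genes in monocytes (2 before) with values raised to the limit or the negative control mean subtracted, 1 in Ly6C-inter cells (2 before) with no scaling, positive controls, Ppia and Rpl19 or raised values, and 0 in Ly6C-low cells (1 before) with reference genes, no scaling, positive controls or raised values. Past 2, NS MHCII+ over monocytes gave 2 with reference genes, 4 with no scaling or positive controls, 0 after subtraction and 3 at a threshold of 1 (1 before). Over NS Ly6C-inter cells there were 3 with no scaling and 4 with positive controls (0 before). Over NS Ly6C-low cells there was 1 with reference genes, no scaling, positive controls, raised values or subtraction and 3 at a threshold of 1 (0 before). Over DS5 monocytes there were 4 with no scaling or positive controls and 1 after subtraction (0 before). Over DS5 Ly6C-inter cells there were 2 with no scaling or positive controls, 0 with raised values, and 3 after subtraction or at a threshold of 1 (1 before). Over DS5 Ly6C-low cells there were 0 with reference genes, log2(value + 1) or raised values and 3 with no scaling or positive controls (1 before). The change of Itgam over Itgb2 was 5.91 with stress in Ly6C-inter cells after subtraction (2.32 with raised values), and in DS5 MHCII+ over Ly6C-inter cells -2.16 with raised values and -5.84 after subtraction. That of Icam1 over Itgb2 in NS MHCII+ over Ly6C-low cells was 0.70 with raised values. Of 180 counts of list genes past a threshold, 92 moved by more than 1.5 times. The cause of these moves was not tested. No paired analysis was possible because each condition had 1 sample, and background limits every value under about 11 to 23 counts.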
